A study of Homo sapiens with 100 samples.

Results

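Transcripts of 10 enzymes that make serine, folate-bound carbon units and asparagine were followed in a B cell lymphoma line exposed to BTK degraders and to venetoclax. The genes were chosen by pathway and taken by name from the deposited table, where all 10 names were found among 78894 gene identifiers. That rule uses no measured value, but the pathway was picked with earlier results of these data known. Counts of enzymes set beside shares of all genes therefore describe a list that was not blind to the data. The cells were TMD8, an established human line of the activated class of large B cell lymphoma, grown in Alpha MEM with nucleosides and serum. Poly(A) RNA was sequenced at its 3' end in bulk cultures of 6 clones that carry BTK A428D at the endogenous locus and of 5 wild-type (WT) clones. Every clone grew from a single cell, so that a genotype difference here is a difference between 6 and 5 isolates. Clones of each genotype spent 24 h in zelebrudomide plus venetoclax, bexobrutideg plus venetoclax, pomalidomide plus venetoclax, venetoclax, zelebrudomide, bexobrutideg, pomalidomide or the solvent DMSO, which made 16 groups and 88 libraries. Untreated cultures of the same 11 clones were analysed as a set of their own. Titles of the samples write SF3B1 beside A428D, while the growth protocol and the series text name BTK. BTK is taken here, and 3' counts cannot check the base change. Drug doses are not known from the sources used.

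Zelebrudomide is a degrader of BTK, the kinase that relays B cell receptor signals, and it also directs the ligase subunit cereblon against the transcription factors IKZF1 and IKZF3. Bexobrutideg degrades BTK without that second activity, pomalidomide degrades IKZF1 and IKZF3 and not BTK, and venetoclax blocks BCL2, which keeps B cells alive. The series asks how the A428D change alters responses to such drugs.

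Cells build serine from a glycolytic intermediate in a short chain of reactions. PHGDH oxidises 3-phosphoglycerate, PSAT1 transfers an amino group from glutamate to the product, and PSPH removes the phosphate. Serine then yields glycine and a carbon unit carried by tetrahydrofolate, through SHMT1 in the cytosol and SHMT2 in mitochondria. In mitochondria MTHFD2 oxidises that unit, MTHFD1L releases it as formate and ALDH1L2 can oxidise it to CO2 with a gain of NADPH. In the cytosol MTHFD1 takes formate back into the folate pool that feeds purine and thymidylate synthesis, which dividing lymphocytes need. ASNS makes asparagine from aspartate and glutamine. PHGDH, PSAT1, SHMT2, MTHFD2 and ASNS are textbook targets of ATF4, the transcription factor of the amino acid response.

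Because several of these genes moved together in the results, their promoters are shown for the letters TGATGNAA, the core of the C/EBP-ATF response element through which ATF4 acts. RefSeq promoter windows (GRCh38.p14, the 250 bases before each annotated start) were matched by symbol for 7 of the 10 genes, and PSPH, SHMT2 and ALDH1L2 had no entry. On either strand the motif stood in the windows of ASNS and MTHFD1L, and in 3.89% of 27305 genes with such windows. The ASNS window is printed because it holds the motif, 68 bases upstream of the start, and the PSAT1 window because that gene moved like ASNS in several comparisons while its window does not hold these letters. Capitals mark the motif.
ASNS, chr7:97872409-97872658, minus strand: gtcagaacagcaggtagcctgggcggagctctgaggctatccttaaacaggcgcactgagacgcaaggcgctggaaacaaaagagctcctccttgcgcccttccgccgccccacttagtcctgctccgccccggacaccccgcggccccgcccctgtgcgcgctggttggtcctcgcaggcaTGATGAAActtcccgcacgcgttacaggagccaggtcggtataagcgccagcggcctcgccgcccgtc
PSAT1, chr9:78296875-78297124, plus strand: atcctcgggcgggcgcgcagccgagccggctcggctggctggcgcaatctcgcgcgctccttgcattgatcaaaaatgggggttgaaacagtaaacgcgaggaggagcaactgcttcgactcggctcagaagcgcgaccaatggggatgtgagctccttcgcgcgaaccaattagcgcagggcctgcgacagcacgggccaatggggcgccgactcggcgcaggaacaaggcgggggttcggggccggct
In MTHFD1L the match reads TGATGCAA and lies 129 or 90 bases upstream, depending on which annotated start is taken. The letters CACGTG, read by E-box factors, occurred in the windows of MTHFD1 and MTHFD1L and in 7.73% of genes. The gene bodies lie at chr7:97852118-97872542 (ASNS), chr9:78297143-78330093 (PSAT1) and chr1:119648411-119744226 (PHGDH) in GRCh38. A match describes the sequence and shows no binding, and no match says only that these letters are absent from the window.

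Counted reads per library ran from 1476876 to 12502216, and 1 library stood apart: the WT clone 3 culture on bexobrutideg plus venetoclax held the 1476876. Leaving it out added 2 calls, named with their comparisons, and removed 0. No pair of libraries within a group agreed within sampling noise (lowest chi-square per degree of freedom 1.79). The 8 B cell markers summed to 3130 to 6100 CPM (counts per 1000000 counted reads), and 12 of 14 markers of other lineages had medians under 1 CPM. In bulk RNA, fewer cells and less RNA per cell cannot be told apart. Levels are CPM scaled by TMM within a set, as mean ± SD over 6 A428D or 5 WT clones. Changes are log2 fold changes ± SE from edgeR's quasi-likelihood test, and a gene was called at a Benjamini-Hochberg adjusted p under 0.05 over all genes tested. All 10 enzymes passed the expression filter in the 24 h set, and 9 did in the untreated set, where ALDH1L2 held at most 4 reads in a library. Levels are not compared between genes, since 3' counts are not on a length scale.

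Under DMSO the A428D clones held less transcript of the entry enzymes of serine synthesis and of asparagine synthetase. Of the 10 enzymes, 3 were lower in A428D than in WT clones and 0 higher, against 3.83% of 13397 genes called lower. The median change of the 10 was -0.47, beside 0.00 over all genes tested. PHGDH ranged from 6.62 to 21.2 CPM in A428D clones, with a median of 12.1, against 24.8, 34.4, 29, 35.5 and 30.4 CPM in WT clones 1 to 5. Every A428D clone lay below every WT clone, and the change was -1.28 ± 0.27 (adjusted p = 0.0176). ASNS had 6.46, 9.42 and 10.8 CPM as lowest, median and highest of the A428D clones, against 12.7, 17.5, 13.5, 15.5 and 12.5 CPM in WT clones. Its groups did not overlap either, with a change of -0.70 ± 0.15 (adjusted p = 0.0115). PSAT1 had 25.7, 38.8 and 50.1 CPM as lowest, median and highest of the A428D clones, against 48.9, 63.0, 63.4, 63.6 and 64.9 CPM in WT clones. These groups touched, because WT clone 1 lay below the highest A428D clone, and the change was -0.66 ± 0.14 (adjusted p = 0.0159).

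The other 7 enzymes did not pass the test under DMSO. PSPH, the last step of the serine chain, averaged 11.5 ± 2.39 CPM in A428D and 15.8 ± 2.13 CPM in WT clones (-0.47 ± 0.14, adjusted p = 0.0515). ALDH1L2 averaged 0.758 ± 0.667 CPM in A428D and 2.19 ± 0.79 CPM in WT clones (-1.48 ± 0.44, adjusted p = 0.0532), on 1 to 14 reads in an A428D library and 9 to 25 in a WT library. It was called in the fit of all 88 libraries (0.0221), without a filter (0.000203) and with DESeq2 (0.0309). MTHFD1L stood at -0.47 ± 0.16 (adjusted p = 0.0759) and MTHFD2 at -0.22 ± 0.09 (adjusted p = 0.162). Of the enzymes that split serine, SHMT2 had -0.16 ± 0.15 (adjusted p = 0.552) and SHMT1 0.01 ± 0.18 (adjusted p = 0.987). MTHFD1 stood in the other direction, at 0.27 ± 0.13 (adjusted p = 0.221). The call of PSPH depended on the fit: its adjusted p was 0.0226 without A428D clone 1 and 0.0424 without A428D clone 2. PSPH was also called in the fit of all 88 libraries (0.0251), without a filter (0.00432) and with DESeq2 (0.0334). MTHFD1L was called without a filter (0.0116). Without A428D clone 1, MTHFD1 (adjusted p = 0.0381, higher) and MTHFD2 (0.0271, lower) were also called, and so was MTHFD1L without A428D clone 3 (0.0118), so that the count ran from 3 to 6 over the 11 fits with a clone left out.

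**Figure D1:**
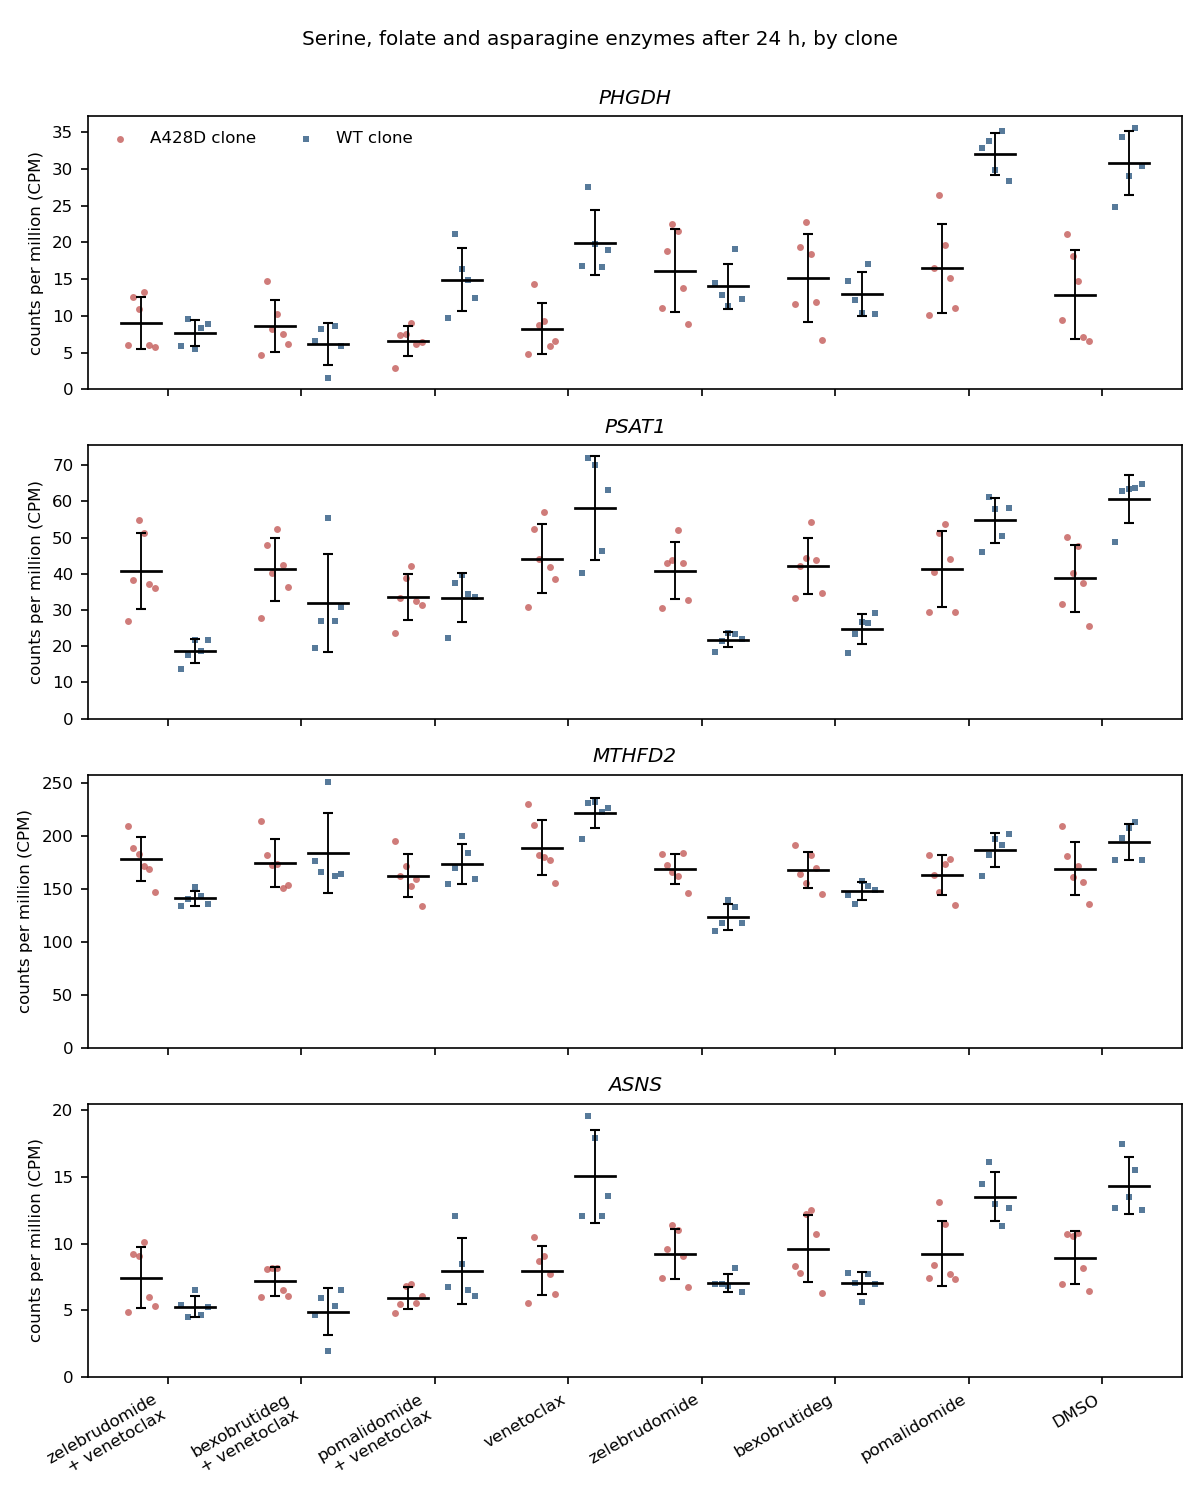
Levels of PHGDH, PSAT1, MTHFD2 and ASNS (y axis, CPM) in each clone of the 24 h set by treatment (x axis), with A428D clones as red circles left of WT clones as blue squares; bars are mean ± SD over 6 or 5 clones. Under DMSO, PHGDH averages 12.9 CPM in A428D and 30.8 CPM in WT clones, and on bexobrutideg the means are 15.1 and 13.0 CPM.

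In the untreated cultures no enzyme passed the test. With edgeR, 0 of 9 enzymes were called, against 5.9% of 14564 genes, 5 had an unadjusted p under 0.05, as did 2994 of all genes, and DESeq2 called 0 enzymes and 1006 genes. PHGDH ranged from 3.83 to 11.1 CPM in A428D clones (median 5.95), against 12.1, 10.8, 9.49, 7.99 and 7.93 CPM in WT clones. A428D clones 2 and 4 lay within the WT range and the change was -0.50 ± 0.25 (adjusted p = 0.285). ASNS averaged 6.75 ± 0.60 CPM in A428D and 7.82 ± 0.61 CPM in WT clones (-0.21 ± 0.09, adjusted p = 0.207). PSAT1 averaged 79.2 ± 10.2 CPM in A428D and 75.6 ± 4.92 CPM in WT clones (0.07 ± 0.08, adjusted p = 0.704). The interval of that change ran from -0.09 to 0.23. Leaving out A428D clone 4 brought SHMT2 past the threshold (-0.15, adjusted p = 0.0417), and leaving out A428D clone 1 did so for MTHFD2 (-0.16, adjusted p = 0.0232).

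In A428D clones no enzyme was called lower on either BTK degrader, and in WT clones both degraders lowered PHGDH, PSAT1, SHMT2, MTHFD2 and ASNS. In A428D clones zelebrudomide gave 1 enzyme called higher of 10 (1.34% of 14962 genes were called higher) and 0 lower, with a median change of 0.15. In WT clones it gave 6 called lower (3.52% of genes) and 0 higher, with a median of -0.62. On bexobrutideg 0 enzymes were called in A428D clones, where edgeR called 0 of 14962 genes (0.0%), 288 at an unadjusted p under 0.05 (1 of them ALDH1L2), and DESeq2 called 0. In WT clones bexobrutideg gave 5 enzymes called lower (1.71% of genes) and 0 higher, with a median of -0.57. The comparisons of both drugs share the DMSO libraries of their genotype.

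In A428D clones the serine chain differed from DMSO by less than the spread between clones. PHGDH had 8.93, 16.3 and 22.5 CPM as lowest, median and highest on zelebrudomide and 6.75, 15.2 and 22.8 CPM on bexobrutideg, against 6.62, 12.1 and 21.2 CPM on DMSO. All 3 ranges overlap almost entirely, with changes of 0.34 ± 0.26 (adjusted p = 0.824) and 0.26 ± 0.26 (adjusted p = 1.0). The same clones are in each group, and on both drugs PHGDH was lower than on DMSO in clone 2 and higher in the other A428D clones. With the clone as a block the changes were 0.34 ± 0.14 (adjusted p = 0.154) and 0.26 ± 0.14 (adjusted p = 0.99). PSAT1 averaged 40.9 ± 7.95 CPM on zelebrudomide and 42.1 ± 7.68 CPM on bexobrutideg, against 38.8 ± 9.28 CPM on DMSO. ASNS averaged 9.21 ± 1.87 CPM on zelebrudomide and 9.64 ± 2.54 CPM on bexobrutideg, against 8.96 ± 1.99 CPM on DMSO. For both genes the differences were smaller than the spread between clones, at 0.05 to 0.13 on the log2 scale. The interval of the ASNS change ran from -0.28 to 0.38 on zelebrudomide and from -0.20 to 0.46 on bexobrutideg. MTHFD2 stood at 0.00 ± 0.09 on zelebrudomide (adjusted p = 1.0), within an interval of -0.19 to 0.18.

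The exception in A428D clones was ALDH1L2, the mitochondrial enzyme that oxidises formyl-tetrahydrofolate. It had 0.939, 1.91 and 5.15 CPM as lowest, median and highest on zelebrudomide, against 0.153, 0.679 and 1.78 CPM on DMSO, and was higher in 6 of 6 clones (1.49 ± 0.41, adjusted p = 0.0288). The groups overlapped, and the libraries held 7 to 36 reads of it on zelebrudomide and 1 to 14 on DMSO. The call was lost without A428D clone 2 (adjusted p = 0.158), 3 (0.0645) or 4 (0.0651). On bexobrutideg it averaged 1.52 ± 1.26 CPM, against 0.758 ± 0.667 CPM on DMSO, and did not pass (0.98 ± 0.43, adjusted p = 1.0).

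In WT clones the serine chain fell at its entry. PSAT1 had 18.4, 21.5, 23.7, 23.4 and 22.0 CPM on zelebrudomide and 18.2, 23.4, 26.6, 26.4 and 29.3 CPM on bexobrutideg, against 48.9, 63.0, 63.4, 63.6 and 64.9 CPM on DMSO. Every culture on a degrader lay below every DMSO culture, with changes of -1.48 ± 0.20 on zelebrudomide (adjusted p = 4.38e-08) and -1.30 ± 0.19 on bexobrutideg (adjusted p = 3.01e-06). PHGDH had 14.4, 12.9, 11.3, 19.1 and 12.3 CPM on zelebrudomide and 14.8, 12.2, 10.4, 17.1 and 10.3 CPM on bexobrutideg, against 24.8, 34.4, 29, 35.5 and 30.4 CPM on DMSO. The drug and DMSO groups did not overlap, with changes of -1.13 ± 0.27 (adjusted p = 0.00349) and -1.25 ± 0.27 (adjusted p = 0.00252). PSPH had -0.11 ± 0.14 on zelebrudomide (adjusted p = 0.749) and had -0.37 ± 0.14 on bexobrutideg (adjusted p = 0.185, but 0.0203 with the clone as a block).

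Asparagine synthetase fell by about as much on either degrader. ASNS had 6.97, 6.96, 6.83, 8.19 and 6.40 CPM on zelebrudomide and 7.83, 7.08, 5.66, 7.69 and 7.01 CPM on bexobrutideg, against 12.7, 17.5, 13.5, 15.5 and 12.5 CPM on DMSO in WT clones. Again no culture on a degrader reached the lowest DMSO culture, with changes of -1.02 ± 0.19 (adjusted p = 4.46e-05) and -1.02 ± 0.18 (adjusted p = 0.000106).

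Of the 4 mitochondrial folate enzymes 3 fell on zelebrudomide (MTHFD2, SHMT2 and MTHFD1L) and 2 on bexobrutideg (MTHFD2 and SHMT2). MTHFD2 had 110, 118, 140, 133 and 118 CPM on zelebrudomide and 144, 136, 158, 153 and 149 CPM on bexobrutideg, against 177, 198, 208, 213 and 177 CPM on DMSO in WT clones. The groups were separate for both drugs, with changes of -0.65 ± 0.10 (adjusted p = 2.61e-06) and -0.40 ± 0.10 (adjusted p = 0.0159). SHMT2 averaged 153 ± 23.0 CPM on zelebrudomide and 145 ± 25.4 CPM on bexobrutideg, against 231 ± 30.6 CPM on DMSO (-0.60 ± 0.18, adjusted p = 0.0329, and -0.67 ± 0.18, adjusted p = 0.028). MTHFD1L averaged 8.94 ± 1.28 CPM on zelebrudomide, against 12.8 ± 1.29 CPM on DMSO (-0.51 ± 0.17, adjusted p = 0.0477), and had -0.47 ± 0.17 on bexobrutideg (adjusted p = 0.135). ALDH1L2 was lower in 5 of 5 clones on each drug without passing, at -0.81 ± 0.42 on zelebrudomide (adjusted p = 0.299) and -0.95 ± 0.42 on bexobrutideg (adjusted p = 0.285).

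The cytosolic folate enzymes were not called on a degrader in WT clones. SHMT1 stood at -0.12 ± 0.19 on zelebrudomide (adjusted p = 0.802) and -0.14 ± 0.19 on bexobrutideg (adjusted p = 0.827). MTHFD1 was lower in 5 of 5 clones on each, at 19.8 ± 1.49 CPM on zelebrudomide and 20.9 ± 2.09 CPM on bexobrutideg, against 26.6 ± 2.02 CPM on DMSO, with no overlap (adjusted p = 0.147 and 0.365). With the clone as a block MTHFD1 passed on zelebrudomide (0.000679) and on bexobrutideg (0.00868), as did ALDH1L2 (0.046 and 0.0226) and, on bexobrutideg, MTHFD1L (0.0144), so that 8 enzymes were called lower on zelebrudomide and 9 on bexobrutideg (8.7% and 6.12% of all genes in that fit). Without any 1 of the 5 WT clones SHMT2 was lost on zelebrudomide (adjusted p 0.093 to 0.168) and on bexobrutideg (0.0836 to 0.231), MTHFD1L was lost on zelebrudomide (0.0796 to 0.193), and MTHFD2 was lost on bexobrutideg without WT clone 2 (0.163) or 4 (0.127). Those fits had no clone term. With all clones and the clone as a block, SHMT2 had an adjusted p of 3.23e-05 on zelebrudomide and 6.94e-06 on bexobrutideg. In that fit MTHFD1L had 0.00457 on zelebrudomide and MTHFD2 had 1.22e-06 on bexobrutideg.

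**Figure D2:**
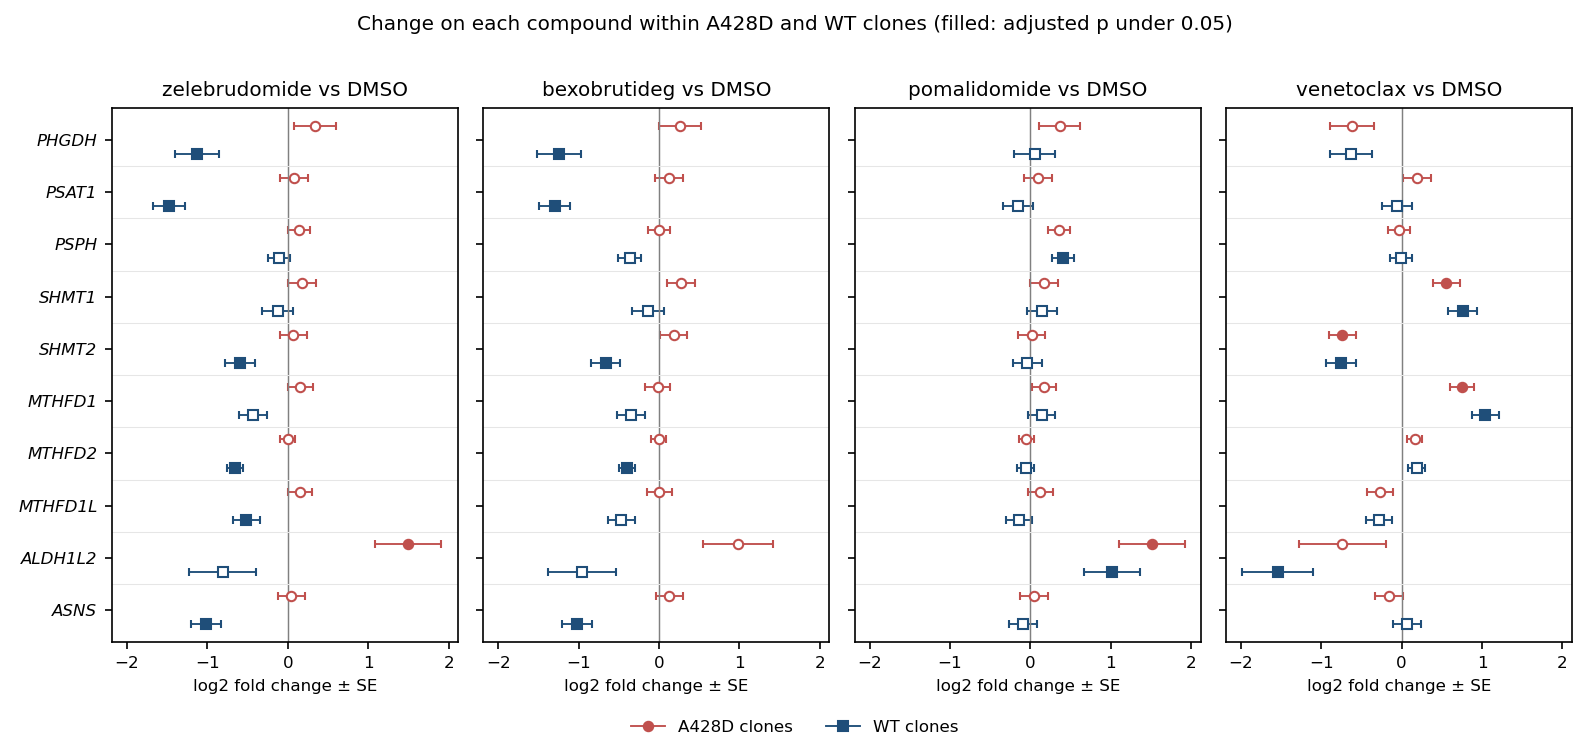
Change of each enzyme (rows) on 4 single compounds relative to DMSO (x axis, log2 fold change ± SE), with A428D clones as red circles above WT clones as blue squares; filled symbols passed an adjusted p under 0.05. On zelebrudomide and bexobrutideg PHGDH, PSAT1 and ASNS lie between 0.05 and 0.34 in A428D clones and between -1.48 and -1.02 in WT clones.

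Whether the genotypes responded differently was tested by subtracting the WT change from the A428D change. Each such difference contains the same DMSO libraries as the comparison of the genotypes under DMSO, so these results are not independent of it. For zelebrudomide 5 of 10 enzymes had a positive difference that passed, against 0.849% of 14962 genes, and 0 a negative one; the median difference was 0.66. They were PSAT1 (1.55 ± 0.26, adjusted p = 8.97e-05), MTHFD2 (0.65 ± 0.14, adjusted p = 0.00378), ASNS (1.06 ± 0.25, adjusted p = 0.0118), ALDH1L2 (2.30 ± 0.59, adjusted p = 0.0269) and PHGDH (1.47 ± 0.37, adjusted p = 0.0275). For bexobrutideg 3 passed with a positive difference, against 0.495% of genes, with a median of 0.66: PSAT1 (1.42 ± 0.26, adjusted p = 0.000681), ASNS (1.15 ± 0.25, adjusted p = 0.00562) and PHGDH (1.51 ± 0.38, adjusted p = 0.0288). With the clone as a block, where 4.07% and 3.31% of all genes had a positive difference called, the counts were 8 for zelebrudomide, with SHMT2 (0.0022), MTHFD1 (0.0014) and MTHFD1L (0.0167) added, and 6 for bexobrutideg, with SHMT2 (5.78e-05), MTHFD2 (0.000961) and ALDH1L2 (0.00184) added. Without 1 clone the PHGDH call was lost in 7 of 11 fits for each drug, namely without WT clone 1, 2, 3, 4 or 5 or A428D clone 4 or 5 for zelebrudomide (adjusted p up to 0.118) and without WT clone 2, 3, 4 or 5 or A428D clone 3, 4 or 5 for bexobrutideg (up to 0.15). For zelebrudomide ALDH1L2 was lost without WT clone 1, 2, 3 or 5 or A428D clone 2 (up to 0.114) and ASNS without WT clone 2 (0.0579). Those fits had no clone term. With all clones and the clone as a block, PHGDH had an adjusted p of 6.88e-08 for zelebrudomide and 5.86e-08 for bexobrutideg. For zelebrudomide ALDH1L2 had 2.78e-05 and ASNS 3.37e-06 in that fit.

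Levels of the 2 genotypes on a degrader show the same values from the other side, as a description with no test. On zelebrudomide PSAT1 averaged 40.9 ± 7.95 CPM in A428D and 21.8 ± 2.1 CPM in WT clones, and MTHFD2 169 ± 14.2 CPM in A428D and 124 ± 12.3 CPM in WT clones. Every A428D clone lay above every WT clone for these genes. On bexobrutideg PSAT1 averaged 42.1 ± 7.68 CPM in A428D and 24.8 ± 4.22 CPM in WT clones, again without overlap. PHGDH and ASNS overlapped between genotypes on either drug: PHGDH averaged 16.1 ± 5.65 CPM in A428D and 14.0 ± 3.07 CPM in WT clones on zelebrudomide.

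Under DMSO and on the BTK degraders, genes known to act with ATF4 moved alongside. ATF4 itself averaged 175 ± 41.1 CPM in A428D and 278 ± 21.9 CPM in WT clones on DMSO (-0.68 ± 0.13, adjusted p = 0.00991). In A428D clones it averaged 201 ± 42.0 CPM on zelebrudomide and 193 ± 30.4 CPM on bexobrutideg. In WT clones the same drugs gave 145 ± 19.2 and 141 ± 14.8 CPM, with changes of -0.94 ± 0.15 (adjusted p = 5.74e-06) and -0.97 ± 0.15 (adjusted p = 9.97e-06). The difference in response was 1.14 ± 0.21 for zelebrudomide (adjusted p = 0.000357) and 1.12 ± 0.21 for bexobrutideg (adjusted p = 0.000681). Of the ATF4 gene and 19 listed partners, targets, upstream kinases and related regulators, 0 were higher and 6 lower in A428D than in WT clones under DMSO (18 tested), among them the glutathione-degrading enzyme CHAC1 (-1.79) and the stress sensor SESN2 (-1.52). Over all genes 3.83% were called lower in that comparison. On zelebrudomide 0 of 19 tested were called in A428D clones, where their median change was 0.20, beside -0.01 over all genes. In WT clones 8 were called lower, against 3.52% of all genes, including CEBPB (-1.24), CEBPG (-0.81) and TRIB3 (-1.11). On bexobrutideg 0 were called in A428D clones, where the median change was 0.12. In WT clones 7 were called lower on bexobrutideg, against 1.71% of all genes. On venetoclax 8 of the 19 were called lower and 1 higher in A428D clones (8.79% of all genes lower). In WT clones 7 were called lower and 1 higher (17.4% lower). PSAT1 and ASNS were not called there. On pomalidomide 4 were called higher and 0 lower in A428D clones (4.92% of all genes higher), and 4 higher and 1 lower in WT clones (5.36% higher). PHGDH, PSAT1 and ASNS were not called on pomalidomide. The part of ATF4 in the changes of the enzymes was not tested.

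Genes of the nearest reactions were counted in the same way. Over all genes 3.52% were called lower on zelebrudomide and 1.71% on bexobrutideg in WT clones. Under DMSO 3.83% were called lower in A428D than in WT clones. Of 14 tested genes of asparagine, glutamine and proline metabolism, 1 was called lower on zelebrudomide in A428D clones (glutamine synthetase GLUL, -0.38) and 7 in WT clones, where GPT2 had -1.26, the amino acid transporter SLC1A5 -0.74 and the proline enzyme PYCR1 -0.65. Of 14 tested genes of serine transport, glycine cleavage and sulfur metabolism, 0 were called on zelebrudomide in A428D clones and 2 were called lower in WT clones: CTH, which makes cysteine, at -1.10, and the glycine transporter SLC6A9 at -1.48. Of 14 tested folate genes 0 were called on either degrader in either genotype. Under DMSO, SLC6A9 (-2.34 ± 0.30) and ASS1, which joins citrulline to aspartate (-3.21 ± 0.39), were lower in A428D than in WT clones. The asparagine, glutamine and proline list was split there, with 2 higher, GLUL (0.40) and GOT2 (0.42), and 2 lower, ASS1 and SLC1A5 (-0.65). Shares of all genes called lower on zelebrudomide in A428D clones, or higher under DMSO, are not given here. Those counts are descriptions of single genes.

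On pomalidomide, which leaves BTK in place, no enzyme was called lower in either genotype. In A428D clones 1 enzyme was called higher (4.92% of genes) and 0 lower, and in WT clones 2 were called higher (5.36%) and 0 lower. ALDH1L2 had 1.33, 2.01 and 3.65 CPM as lowest, median and highest in A428D clones on pomalidomide, against 0.153, 0.679 and 1.78 CPM on DMSO (1.51 ± 0.41, adjusted p = 0.00829). In WT clones it had 4.3, 4.5, 4.94, 3.5 and 5.25 CPM on pomalidomide, against 1.66, 3.09, 2.96, 1.93 and 1.33 CPM on DMSO (1.02 ± 0.35, adjusted p = 0.0441). It was higher in 6 of 6 and 5 of 5 clones, and the WT groups did not overlap. PSPH averaged 14.7 ± 1.3 CPM on pomalidomide and 11.5 ± 2.39 CPM on DMSO in A428D clones (0.36 ± 0.13, adjusted p = 0.0792, but 0.0067 with the clone as a block and 0.0471 without the shallow library). In WT clones PSPH averaged 21.0 ± 2.32 CPM on pomalidomide and 15.8 ± 2.13 CPM on DMSO (0.41 ± 0.13, adjusted p = 0.038), without overlap. The A428D call of ALDH1L2 was lost without A428D clone 2 (0.06), the WT call of ALDH1L2 without any 1 of the 5 WT clones (0.0609 to 0.246), and that of PSPH without WT clone 1, 2, 3 or 5 (0.0649 to 0.151).

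PHGDH, PSAT1 and ASNS differed from their DMSO levels on pomalidomide by less than the spread between clones. In A428D clones PHGDH averaged 16.5 ± 6.04 CPM on pomalidomide and 12.9 ± 6.06 CPM on DMSO. Both groups hold the same clones. PHGDH fell from 21.2 to 16.5 CPM in A428D clone 2 and was higher on pomalidomide in the other A428D clones. Its change in A428D clones was 0.36 (adjusted p = 0.525), and with the clone as a block 0.38 ± 0.14 (adjusted p = 0.0538). In WT clones it averaged 32.0 ± 2.84 CPM on pomalidomide and 30.8 ± 4.30 CPM on DMSO. Differences in response to pomalidomide between genotypes gave 0 calls among the 10 enzymes and 0.0% of all genes with edgeR. At an unadjusted p under 0.05 the counts were 0 enzymes and 253 genes, and DESeq2 called 0 of either. The intervals are wide: for PHGDH the difference lay between -0.40 and 1.02, and for PSAT1 between -0.25 and 0.75. On pomalidomide PHGDH averaged 16.5 CPM in A428D and 32.0 CPM in WT clones without overlap, whereas PSAT1 and ASNS overlapped between the genotypes.

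Zelebrudomide was also set directly against the other single drugs, as given, since the doses are unknown. Against bexobrutideg 0 enzymes were called by edgeR in A428D clones (1.24% of genes called in either direction) and 0 in WT clones (1.23%), with 0 and 1 enzymes at an unadjusted p under 0.05, and DESeq2 called 0 in each. The intervals of the WT differences ran from -0.45 to 0.69 for PHGDH, from -0.58 to 0.22 for PSAT1 and from -0.39 to 0.40 for ASNS. MTHFD2 averaged 124 ± 12.3 CPM on zelebrudomide and 148 ± 8.5 CPM on bexobrutideg in WT clones (-0.26 ± 0.10, adjusted p = 0.383), and with the clone as a block it passed (0.00434). Against pomalidomide edgeR called 0 in A428D clones (0.842% in either direction), with 0 at an unadjusted p under 0.05 and 0 by DESeq2. In WT clones 8 were lower on zelebrudomide than on pomalidomide (4.8% of genes), all but SHMT1 (-0.27 ± 0.19, adjusted p = 0.476) and MTHFD1L (-0.37 ± 0.17, adjusted p = 0.204). The largest of these by size was ALDH1L2, at 1.23 ± 0.46 CPM on zelebrudomide and 4.5 ± 0.67 CPM on pomalidomide (-1.83 ± 0.39, adjusted p = 0.0006), ahead of PSAT1 (-1.32 ± 0.20, adjusted p = 4.95e-07) and PHGDH (-1.18 ± 0.27, adjusted p = 0.00169). SHMT2 (adjusted p = 0.0458) was lost without any 1 of the 5 WT clones (0.079 to 0.162), MTHFD1 (0.0284) without WT clone 2, 3, 4 or 5 (0.0871 to 0.161) and PSPH (0.00915) without WT clone 2 (0.0556) or 5 (0.117).

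On venetoclax the cytosolic enzymes SHMT1 and MTHFD1 rose and the mitochondrial SHMT2 fell in both genotypes. In A428D clones 2 enzymes were called higher (8.05% of genes) and 1 lower (8.79%). In WT clones 2 were called higher (15.4%) and 2 lower (17.4%), and the median of the 10 was -0.04, beside -0.06 over all genes. These counts are near the shares of all genes, and what follows describes single enzymes. MTHFD1 had 40.3, 56.5 and 65.0 CPM as lowest, median and highest in A428D clones on venetoclax, against 23.1, 33.1 and 41.9 CPM on DMSO (0.75 ± 0.15, adjusted p = 0.000238). In WT clones MTHFD1 had 43.0, 55, 60.5, 52.0 and 62.5 CPM on venetoclax, against 26.4, 28.9, 28.4, 24.3 and 25.1 CPM on DMSO (1.04 ± 0.17, adjusted p = 9.87e-07). It was higher in 6 of 6 and 5 of 5 clones, with overlap among A428D clones and none among WT clones. SHMT1, the cytosolic enzyme that splits serine, averaged 17.6 ± 2.93 CPM on venetoclax and 12.0 ± 3.15 CPM on DMSO in A428D clones (0.56 ± 0.17, adjusted p = 0.0158), where the call was lost without A428D clone 2 (0.0651) or 4 (0.0539). In WT clones SHMT1 averaged 19.97 ± 3.92 CPM on venetoclax and 11.8 ± 2.00 CPM on DMSO (0.76 ± 0.18, adjusted p = 0.000712).

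Its mitochondrial counterpart SHMT2 fell instead. It had 87.2, 129 and 148 CPM as lowest, median and highest in A428D clones on venetoclax, against 158, 192 and 305 CPM on DMSO (-0.74 ± 0.17, adjusted p = 0.00114). In WT clones it had 114, 157, 153, 117 and 144 CPM on venetoclax, against 215, 238, 212, 281 and 208 CPM on DMSO (-0.75 ± 0.18, adjusted p = 0.000882). Neither genotype's groups overlapped. ALDH1L2 averaged 0.752 ± 0.334 CPM on venetoclax and 2.19 ± 0.79 CPM on DMSO in WT clones (-1.54 ± 0.45, adjusted p = 0.00473, but 0.0503 without WT clone 2), on 2 to 8 reads in a venetoclax library. In A428D clones ALDH1L2 stood at -0.74 ± 0.54 (adjusted p = 0.374). The mitochondrial enzymes did not fall as a group. MTHFD1L stood at -0.27 in A428D (adjusted p = 0.258) and -0.28 in WT clones (adjusted p = 0.182). MTHFD2 stood in the other direction, at 0.16 in A428D (adjusted p = 0.236) and 0.19 in WT clones (adjusted p = 0.158).

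The serine and asparagine enzymes that fell on the degraders did not pass on venetoclax alone. PHGDH averaged 8.27 ± 3.44 CPM on venetoclax and 12.9 ± 6.06 CPM on DMSO in A428D clones (-0.62 ± 0.28, adjusted p = 0.112), and 19.9 ± 4.44 CPM on venetoclax and 30.8 ± 4.30 CPM on DMSO in WT clones (-0.63 ± 0.26, adjusted p = 0.0547). It was lower in 6 of 6 and 5 of 5 clones, and with the clone as a block both passed (0.00152 in A428D and 3.79e-05 in WT clones). MTHFD2 was higher in 6 of 6 and 5 of 5 clones, by 0.16 ± 0.09 and 0.19 ± 0.10, and passed only with the block (0.0206 and 0.00913), which made 3 calls higher and 2 lower in A428D clones (13.6% and 17.1% of all genes in that fit). PSAT1 stood at 0.19 ± 0.17 in A428D and -0.06 ± 0.18 in WT clones, and ASNS at -0.16 ± 0.17 in A428D and 0.07 ± 0.17 in WT clones. The difference in response to venetoclax between genotypes gave 0 calls among the 10 enzymes and 0.0% of all genes with edgeR, with 0 enzymes and 709 genes at an unadjusted p under 0.05 and 0 by DESeq2. For SHMT2 the interval of that difference ran from -0.47 to 0.50 and for MTHFD1 from -0.73 to 0.15.

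**Figure D3:**
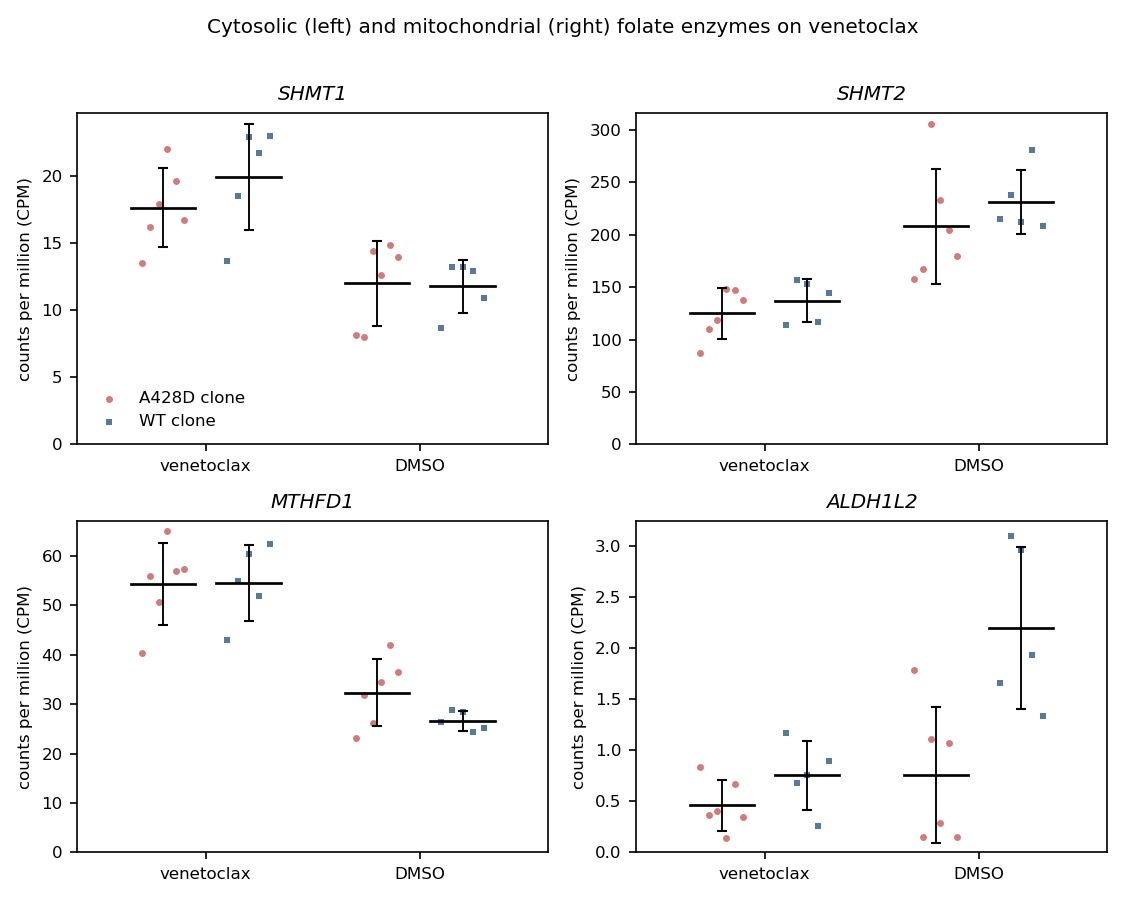
Levels (y axis, CPM) of the cytosolic enzymes SHMT1 and MTHFD1 (left) and the mitochondrial enzymes SHMT2 and ALDH1L2 (right) on venetoclax and on DMSO, with A428D clones as red circles and WT clones as blue squares; bars are mean ± SD over 6 or 5 clones. On venetoclax MTHFD1 averages 54.4 CPM in A428D and 54.6 CPM in WT clones, against 32.3 and 26.6 CPM on DMSO. ALDH1L2 was called lower in WT clones only. The mitochondrial MTHFD2 and MTHFD1L, which were not called in either genotype, are not drawn.

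Other folate genes and genes of DNA replication rose on venetoclax as well. Over all genes 8.05% were called higher and 8.79% lower in A428D clones on venetoclax, and 15.4% higher and 17.4% lower in WT clones. Of 14 tested folate genes 7 were higher and 2 lower in A428D clones (median 0.36), and 9 were higher and 1 lower in WT clones (median 0.49). The folate carrier SLC19A1 had 0.92 in A428D and 1.36 in WT clones. TYMS, thymidylate synthase, rose by 1.36 ± 0.28 in WT clones. Of 20 proliferation genes 9 were higher and 0 lower in A428D clones (median 0.55), and 13 were higher and 0 lower in WT clones (median 0.87), with MCM4 at 1.10 in A428D and 1.75 in WT clones and RRM2 at 1.18 in A428D and 1.69 in WT clones. The part of cell cycle state in the rise of SHMT1 and MTHFD1 was not tested.

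Adding a BTK degrader to venetoclax lowered most of the enzymes in WT clones. The added-drug comparisons share the venetoclax libraries of their genotype. In A428D clones edgeR called 0 enzymes for zelebrudomide (1.07% of genes in either direction), 0 for bexobrutideg (0.0%) and 0 for pomalidomide (7.91%). At an unadjusted p under 0.05 the A428D counts were 1, 0 and 3 enzymes in the same order of drugs, beside 1265, 232 and 2772 of all genes, and DESeq2 called 0 enzymes in each. In WT clones 8 enzymes were called lower for zelebrudomide (9.61% of genes), 6 for bexobrutideg (7.51%) and 3 for pomalidomide (3.1%), with 0 higher. The medians of the 10 in WT clones were -0.87, -0.88 and -0.36 in that order, beside 0.03, 0.03 and 0.00 over all genes.

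ASNS showed the fall with each added drug. In WT clones it had 5.39, 4.53, 6.53, 4.65 and 5.24 CPM with zelebrudomide and 4.68, 5.92, 1.99, 5.36 and 6.54 CPM with bexobrutideg added, against 12.1, 19.6, 17.9, 12.1 and 13.6 CPM on venetoclax alone. No culture with a degrader reached the lowest venetoclax culture (-1.53 ± 0.21, adjusted p = 2.96e-08, and -1.54 ± 0.21, adjusted p = 2.67e-08). With pomalidomide it had 6.77, 12.1, 8.48, 6.52 and 6.06 CPM (-0.90 ± 0.18, adjusted p = 0.000182), where clone 2 reached the venetoclax range. PHGDH averaged 7.66 ± 1.83 CPM with zelebrudomide and 6.14 ± 2.82 CPM with bexobrutideg, against 19.9 ± 4.44 CPM on venetoclax alone (-1.38 ± 0.32, adjusted p = 0.000844, and -1.58 ± 0.32, adjusted p = 0.000218). Neither degrader group overlapped the venetoclax group, whereas with pomalidomide PHGDH averaged 14.9 ± 4.35 CPM and did not pass (-0.40 ± 0.28, adjusted p = 0.467, but 0.043 with the clone as a block).

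PSAT1 had 13.8, 17.5, 21.6, 18.6 and 21.7 CPM with zelebrudomide added in WT clones, against 40.1, 71.9, 70.0, 46.2 and 63.1 CPM on venetoclax alone (-1.66 ± 0.21, adjusted p = 3.73e-09). With bexobrutideg it had 19.6, 26.9, 55.3, 27.1 and 30.8 CPM (-0.94 ± 0.20, adjusted p = 0.000383), where the high value is the shallow clone 3 library, the sole one to overlap the venetoclax range. With only the compared groups in the fit this call was lost (adjusted p = 0.0688). With pomalidomide PSAT1 averaged 33.4 ± 6.71 CPM, below every venetoclax culture (-0.80 ± 0.19, adjusted p = 0.00214). MTHFD2 averaged 141 ± 6.97 CPM with zelebrudomide, against 222 ± 14.0 CPM on venetoclax alone (-0.65 ± 0.10, adjusted p = 1.68e-06), and 174 ± 18.4 CPM with pomalidomide (-0.35 ± 0.10, adjusted p = 0.0176). The pomalidomide call of MTHFD2 was lost without WT clone 2 (0.0824) or 5 (0.0872). With bexobrutideg MTHFD2 averaged 184 ± 37.9 CPM and did not pass (-0.28 ± 0.10, adjusted p = 0.0576), but passed without WT clone 3 (0.00679), without WT clone 1 (0.0379) or without the shallow library alone (0.00132).

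The mitochondrial enzymes SHMT2 and MTHFD1L fell with either degrader. SHMT2 averaged 78.1 ± 9.24 CPM with zelebrudomide and 69.7 ± 22.0 CPM with bexobrutideg, against 137 ± 20.05 CPM on venetoclax alone in WT clones (-0.81 ± 0.19, adjusted p = 0.00099, and -0.95 ± 0.19, adjusted p = 0.000168). Without the shallow library SHMT2 averaged 79.5 ± 2.01 CPM with bexobrutideg. MTHFD1L averaged 5.45 ± 0.96 CPM with zelebrudomide and 5.90 ± 0.73 CPM with bexobrutideg, against 10.5 ± 1.87 CPM on venetoclax alone (-0.92 ± 0.19, adjusted p = 0.000265, and -0.82 ± 0.19, adjusted p = 0.0013). For these genes the degrader groups lay wholly below the venetoclax group. ALDH1L2 was down to 2 reads over the 5 WT libraries with zelebrudomide, against 28 reads on venetoclax alone, a CPM ratio of 0.112 (95% exact binomial interval 0.0129 to 0.444, counting error only). Its test passed (adjusted p = 0.029), but not without WT clone 1 (0.0852), 3 (0.0755), 4 (0.0603) or 5 (0.095).

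Of the cytosolic enzymes MTHFD1 fell with zelebrudomide and SHMT1 with bexobrutideg, and neither passed with pomalidomide. MTHFD1 averaged 35.9 ± 5.44 CPM with zelebrudomide, against 54.6 ± 7.73 CPM on venetoclax alone in WT clones (-0.61 ± 0.17, adjusted p = 0.0059), with no overlap. With bexobrutideg MTHFD1 averaged 42.2 ± 4.5 CPM and did not pass (-0.39 ± 0.17, adjusted p = 0.109, but 0.000694 with the clone as a block). With pomalidomide it averaged 54.2 ± 5.86 CPM (-0.01 ± 0.16, adjusted p = 0.989). SHMT1 had 9.53, 14.3, 25.9, 11.4 and 12.7 CPM with bexobrutideg, against 13.7, 18.5, 22.9, 21.7 and 23.0 CPM on venetoclax alone (-0.54 ± 0.19, adjusted p = 0.0444). The shallow clone 3 library alone went the other way, and the call was lost without WT clone 2 (0.0617), 4 (0.195) or 5 (0.165), with DESeq2 (0.0515) and with only the compared groups (0.269). SHMT1 had -0.44 ± 0.19 with zelebrudomide (adjusted p = 0.094, but 0.00163 with the block) and -0.37 ± 0.18 with pomalidomide (0.242, but 0.0037 with the block). PSPH was not called for any added drug.

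**Figure D4:**
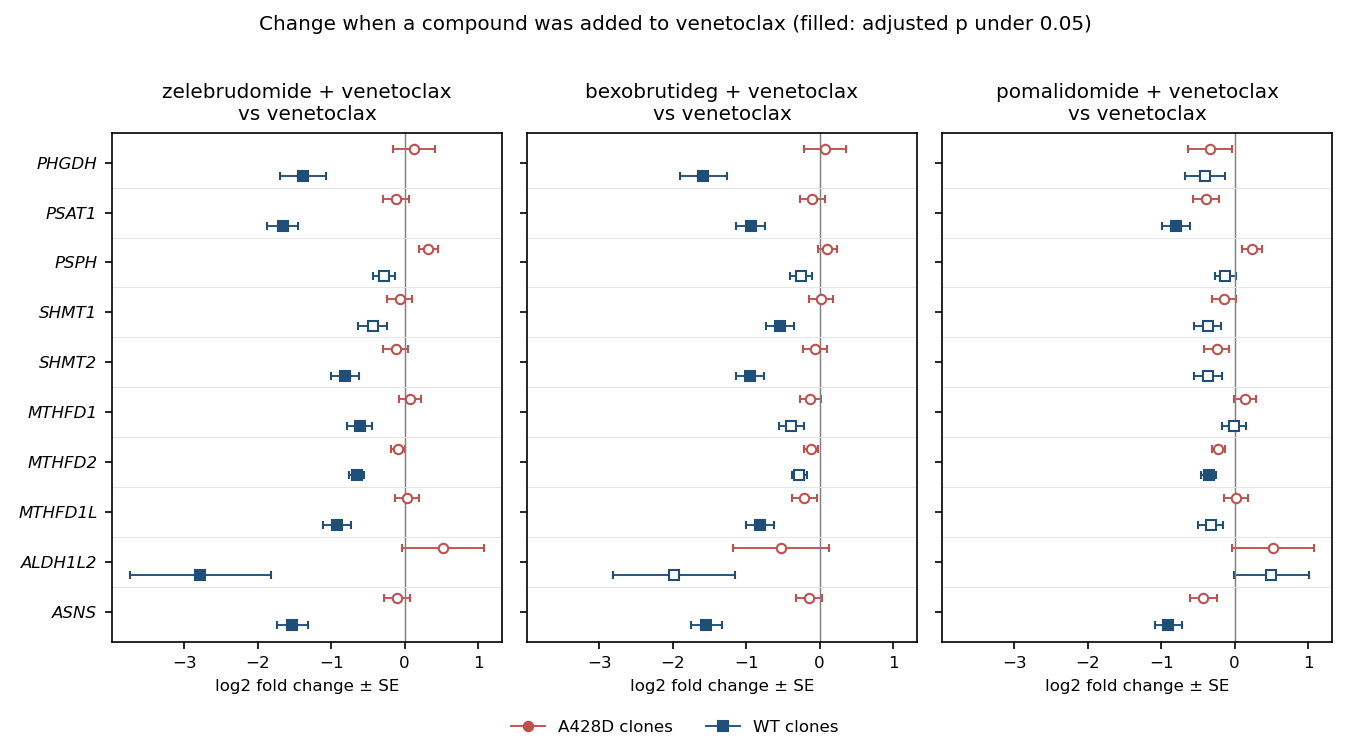
Change of each enzyme (rows) when a drug was added to venetoclax, relative to venetoclax alone (x axis, log2 fold change ± SE), with A428D clones as red circles above WT clones as blue squares; filled symbols passed an adjusted p under 0.05. For ASNS the changes with zelebrudomide, bexobrutideg and pomalidomide are -0.10, -0.15 and -0.43 in A428D clones and -1.53, -1.54 and -0.90 in WT clones.

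With the clone as a block, where 12.7% of all genes were called lower for bexobrutideg and 7.66% for pomalidomide, the WT counts were 9 for bexobrutideg, with MTHFD1, MTHFD2 (0.000269) and ALDH1L2 (0.021) added and PSPH the exception, and 6 for pomalidomide, with PHGDH, SHMT1 and SHMT2 (0.0178) added. In A428D clones the block gave 3 lower for pomalidomide (7.53% of genes): PSAT1 (33.7 ± 6.44 CPM with pomalidomide and 44.1 ± 9.5 CPM on venetoclax alone, 0.000492), MTHFD2 (0.00305) and ASNS (5.94 ± 0.84 CPM with pomalidomide and 7.98 ± 1.85 CPM on venetoclax alone, 0.0121). These were lower in 6 of 6 A428D clones. Differences between the genotypes in the effect of an added drug were not tested. As a description, PSAT1 levels did not overlap on zelebrudomide plus venetoclax (40.7 ± 10.4 CPM in A428D and 18.7 ± 3.26 CPM in WT clones). ALDH1L2 did not overlap there either (0.666 and 0.0903 CPM), on few reads. SHMT2 did not overlap on bexobrutideg plus venetoclax, at 119 ± 23.5 CPM in A428D and 69.7 ± 22.0 CPM in WT clones. Without the shallow library that WT mean was 79.5 ± 2.01 CPM. The lowest A428D clone there had 83.4 CPM and the highest WT clone 81.4 CPM. PHGDH was apart in the other direction on pomalidomide plus venetoclax, at 6.59 CPM in A428D and 14.9 CPM in WT clones. On venetoclax alone PHGDH (8.27 and 19.9 CPM) and ASNS (7.98 and 15.1 CPM) were also lower in A428D clones without overlap.

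Across the 16 groups the enzymes followed a few shared patterns, given here as descriptions. PHGDH was highest in WT clones on pomalidomide (32.0 CPM) and DMSO (30.8 CPM), which did not differ beyond their spread, and lowest in WT clones on bexobrutideg plus venetoclax (6.14 CPM), next to A428D clones on pomalidomide plus venetoclax (6.59 CPM). That order turns on the shallow library, without which the WT mean was 7.30 CPM. ASNS was highest in WT clones on venetoclax (15.1 CPM), DMSO (14.4 CPM) and pomalidomide (13.5 CPM), whose ranges overlap, and lowest in WT clones on bexobrutideg plus venetoclax (4.90 CPM, or 5.62 CPM without the shallow library) and zelebrudomide plus venetoclax (5.27 CPM), whose order it also sets. Over the 16 group means, which share libraries and their scaling, Pearson's r of log2 CPM was 0.897 for PHGDH with ASNS, 0.894 for PHGDH with MTHFD1L and 0.855 for MTHFD2 with PSAT1. The cytosolic pair SHMT1 and MTHFD1 had r = 0.9 with each other, whereas MTHFD1 had -0.502 with SHMT2 and -0.46 with PHGDH.

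**Figure D5:**
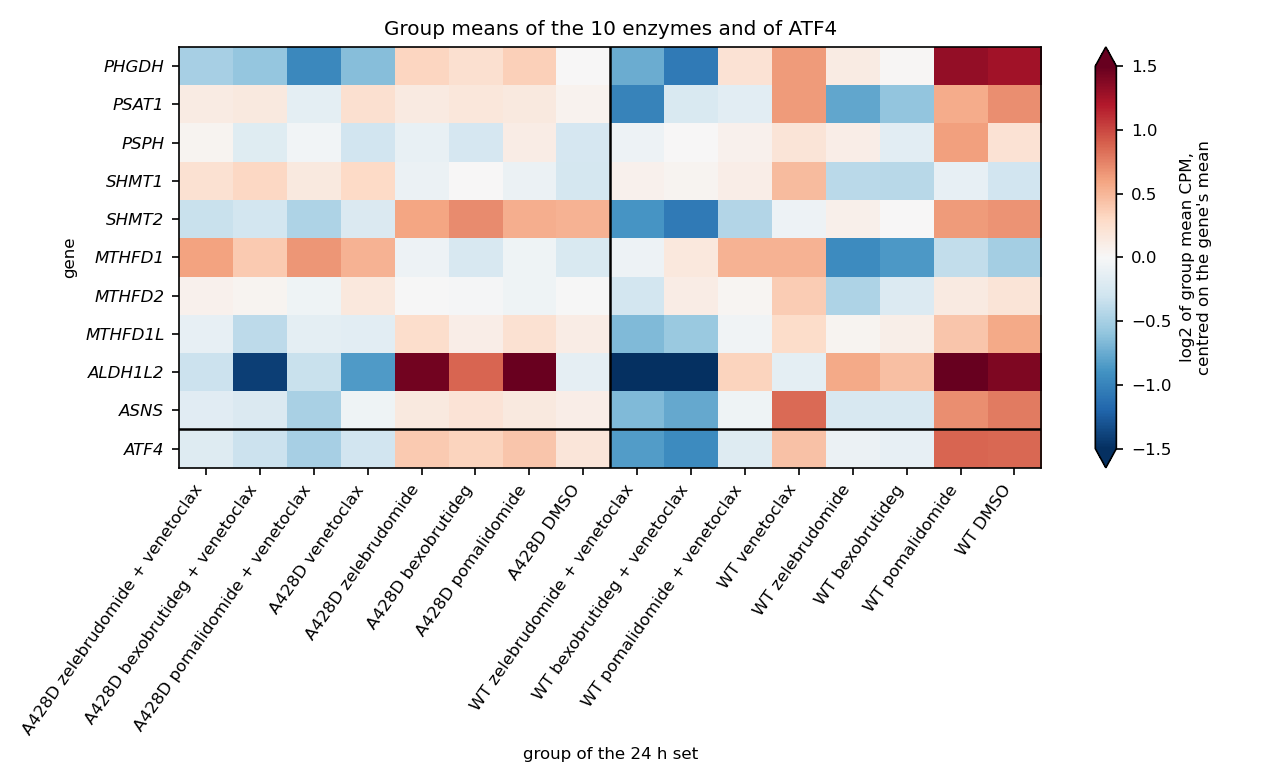
Group means of the 10 enzymes and of ATF4 in the 24 h set (columns, A428D groups left of WT groups), as log2 of the mean CPM centred on each gene's mean over the 16 groups (colour, red above and blue below). PHGDH and ATF4 are reddest in WT clones on pomalidomide and DMSO, and MTHFD1 in A428D clones on venetoclax, alone or with another drug, and in WT clones on venetoclax alone or with pomalidomide.

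The genes outside the 10 with the group pattern most like the mean of the enzymes, over the same 16 group means, were BCAT1 (r = 0.972), an aminotransferase of branched-chain amino acids, CHAC1 (0.957), ATF4 (0.953), GYPC (0.947) and the tryptophanyl-tRNA synthetase WARS1 (0.938), followed by CTH (0.93), the pseudogene ATF4P4 (0.927), CEBPG (0.917), PCNX1 (0.912) and ZDHHC9 (0.91). The mean of the enzymes was taken over log2 CPM centred on each gene and not scaled. Enzymes with a wide range, such as ALDH1L2 and PHGDH, therefore weigh more in it than MTHFD2. Reads of ATF4P4 may be shared with its parent gene ATF4. Single enzymes differed in their likeness to ATF4, with r from 0.95 (MTHFD1L) down to 0.361 (MTHFD2), -0.257 (SHMT1) and -0.365 (MTHFD1). For single enzymes the nearest were NFE2L1 (0.973), SESN2 (0.966) and TOX2 (0.947) for PHGDH, CEBPG (0.939), XPOT (0.931) and FEM1C (0.914) for PSAT1, PRKD3 (0.955), LY75 (0.94) and SNX25 (0.915) for MTHFD2, and ATF4 (0.938), CHAC1 (0.936) and PYCR1 (0.934) for ASNS. ATF4 averaged 85.8 ± 3.82 CPM with zelebrudomide and 79.7 ± 12.6 CPM with bexobrutideg added to venetoclax in WT clones, against 208 ± 40.8 CPM on venetoclax alone (-1.28 ± 0.16 and -1.37 ± 0.16).

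The enzymes also stood at other levels in the untreated set, which was scaled separately. Labels do not say whether both sets were handled together, so the set and the 24 h culture in DMSO cannot be told apart, and no test was made. MTHFD1 averaged 32.3 ± 6.85 CPM in A428D and 26.6 ± 2.02 CPM in WT clones on DMSO, against 96.7 ± 5.19 CPM in A428D and 99.5 ± 5.81 CPM in WT clones untreated. SHMT1 averaged 12.0 ± 3.15 CPM in A428D and 11.8 ± 2.00 CPM in WT clones on DMSO, against 29.98 ± 1.75 CPM in A428D and 32.8 ± 2.23 CPM in WT clones untreated. PHGDH went the other way, at 12.9 ± 6.06 CPM in A428D and 30.8 ± 4.30 CPM in WT clones on DMSO, against 6.84 ± 2.79 CPM in A428D and 9.68 ± 1.83 CPM in WT clones untreated. No enzyme separated the genotypes in the untreated set, where the levels of all 10 overlapped.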

How the data were processed

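Cultures of TMD8 were sequenced at transcript 3' ends by a company, as the labels' protocols say. Tools named in the submitters' processing notes are fastp 0.24.0, FastQC 0.12.1 and MultiQC 1.32, SAMtools 1.22.1 and STAR 2.7.11, Subread 2.1.1 with featureCounts, and edgeR, on GRCh38 (hg38). Neither strand setting nor annotation release is stated in those sources. The authors deposited estimated counts per gene, without normalisation. Of these values 8.76% were not whole. Rounding changed the total by -0.0068%. Spike-in entries (92 of them, up to 0.001% of the counts) were removed, and 36134 identifiers lacking a symbol were tested and never named. Counting intervals cover counting error only.

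Tests used edgeR 4.0.16 (R 4.3.3) with quasi-likelihood, TMM, the default filter (minimum count 10, total 15), robust dispersion and Benjamini-Hochberg adjustment. The 22 comparisons within the 24 h set came from 1 fit of 88 libraries and 14962 genes. A428D was set against WT in fits of 11 libraries, under DMSO (13397 genes) and untreated (14564 genes). Clone numbers in the labels pair the 24 h libraries. Over the 500 genes most variable within groups, deviations of libraries of a clone from their group means correlated with a median of 0.63. By clone the median ran from 0.3 to 0.46 in WT and from 0.66 to 0.87 in A428D clones. Libraries of different clones of a genotype had a median of -0.16, a value that centring on group means itself pulls down. Each of the 88 libraries was closest to another from its clone. Where a result is given with the clone as a block, that fit was used. DESeq2 1.42.0, RLE factors, no filter, only the groups compared, the shallowest library left out and each clone left out were alternatives. Labels do not say that clones were cultured in separate experiments. In the fits of 11 libraries p-values measure the spread between clones. The main fit of 88 libraries had no clone term and treated libraries of the same clone as independent. Its p-values measure the spread of libraries within groups. With the clone as a block, p-values measure the spread left after differences between clones are removed. Fits with a clone left out also had no clone term. The parental library was not used. Scripts were tested on simulated data. The 10 genes and the neighbouring lists were chosen with earlier results of these data known. All 10 are described, and of a neighbouring list up to 4 called genes with the smallest p are named, each also in the other genotype where it helps. Likeness is Pearson's r over the 16 group means. Some genes of the folate list are counted but not reported here by name.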

Additional observations from a re-analysis of the deposited data

Results flagged for a closer look

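Differences between the genotypes in their response to a BTK degrader passed the test of the difference itself for 8 values. For zelebrudomide, A428D minus WT, they were PHGDH (1.47), PSAT1 (1.55), MTHFD2 (0.653), ALDH1L2 (2.3) and ASNS (1.06), on the log2 scale. For bexobrutideg they were PHGDH (1.51), PSAT1 (1.42) and ASNS (1.15).

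In 11 of 180 groups of clones the highest or lowest clone stood far from the rest by Dixon's criterion, which chance meets in about 1 group in 20. A pair of these came from the shallowest library, WT clone 3 on bexobrutideg plus venetoclax: MTHFD2 at 251 CPM, next clone 176 CPM, and SHMT2 at 30.4 CPM, next clone 77.1 CPM. WT clone 1 was lowest for MTHFD2 on venetoclax (197 CPM, next 223 CPM), PSAT1 on DMSO (48.9 CPM, next 63.0 CPM), PSAT1 untreated (67.0 CPM, next 76.4 CPM) and SHMT1 on pomalidomide plus venetoclax (9.55 CPM, next 16.4 CPM). WT clone 2 was highest for MTHFD1L on DMSO (15.1 CPM, next 12.5 CPM) and PHGDH on venetoclax (27.5 CPM, next 19.8 CPM). WT clone 5 held 0.0 CPM of ALDH1L2 untreated, next 0.0791 CPM, which is the step between no read and a single read. A428D clone 1 was highest for SHMT1 untreated (33.3 CPM, next 30.3 CPM) and lowest for it on zelebrudomide plus venetoclax (10.5 CPM, next 16.3 CPM).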

How the results depend on the processing

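No called change of an enzyme reversed under any alternative run. The counts of enzymes called that moved by over 1.5 times were as follows. For A428D against WT under DMSO they were 5 in the fit of all 88 libraries, 6 without a filter and 5 with DESeq2, against 3. With the clone as a replicate block, the paired fit, they were 9 for bexobrutideg in WT clones (8 with only the groups compared, against 5), 2 for pomalidomide and 5 for venetoclax in A428D clones (against 1 and 3), 8 and 6 for the difference in response to zelebrudomide and bexobrutideg (against 5 and 3), 3 in A428D and 6 in WT clones for pomalidomide added to venetoclax (against 0 and 3), and 1 for zelebrudomide against bexobrutideg in WT clones (against 0). The block changed other calls too, all gained and none lost: 28 in all, the ones in WT clones on zelebrudomide, venetoclax and zelebrudomide plus venetoclax being given with those results. With only the groups compared the counts were 0 for zelebrudomide and 0 for pomalidomide in A428D clones (against 1 each), because ALDH1L2 did not pass the filter there and was not tested, and 3 for the difference in response to zelebrudomide (against 5), where PHGDH (adjusted p = 0.0719) and ALDH1L2 (0.103) were lost; PHGDH was also lost for bexobrutideg (0.128). Without a filter or with DESeq2 pomalidomide in WT clones gave 1 (against 2). Without a filter the difference in response to bexobrutideg gave 5 (against 3) and pomalidomide added to venetoclax in A428D clones 1 (against 0). Without the shallowest library pomalidomide in A428D clones gave 2 (against 1). DESeq2 called 1258 of all genes for A428D against WT under DMSO and 1556 for pomalidomide in WT clones. With the block 8.72% of all genes were called higher and 7.94% lower for pomalidomide in A428D clones. For zelebrudomide against bexobrutideg in WT clones the block called 1.86% of all genes lower. Where no share of all genes is given, a count cannot tell a gain among the enzymes from a fit that calls more genes. The cause of the shifts in these counts was not tested.

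Leaving out each clone in turn gave counts of 3 to 6 for A428D against WT under DMSO, and 0 to 1 untreated. In A428D clones they were 0 to 1 for zelebrudomide, 0 for bexobrutideg, 0 to 1 for pomalidomide and 2 to 3 for venetoclax, and in WT clones 4 for zelebrudomide, 3 to 4 for bexobrutideg, 0 to 1 for pomalidomide and 3 to 4 for venetoclax. For the differences in response they were 2 to 5 for zelebrudomide, 2 to 4 for bexobrutideg and 0 for pomalidomide and venetoclax. Added to venetoclax, each drug gave 0 in A428D clones, and in WT clones zelebrudomide gave 7 to 8, bexobrutideg 5 to 7 and pomalidomide 2 to 3. Zelebrudomide against pomalidomide gave 0 in A428D and 5 to 7 in WT clones, and against bexobrutideg 0 in both. On library totals in place of TMM, 1 of 180 group levels moved by more than its SD (MTHFD2 in WT clones on venetoclax). Depth limits ALDH1L2, which held 0 to 39 reads in a library of the 24 h set.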
